A study of Mus musculus with 8 samples.

Results

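Enzymes that oxidise, hydrolyse and conjugate lipophilic compounds were followed in cultured VSMCs of the mouse, the contractile cells of the artery wall (vascular smooth muscle), with and without knockdown of the transcription factor Sox6. The set comprised the protein-coding genes whose symbols place them in cytochrome P450 families CYP1 to CYP4, the flavin monooxygenases (FMO), aldehyde oxidases (AOX), aldehyde dehydrogenases with a symbol of the form Aldh1a1 (ALDH), carboxylesterases (CES), epoxide hydrolases (EPHX), UDP-glucuronosyltransferases of families 1 and 2 (UGT) and sulfotransferases (SULT). Of 30660 gene identifiers in the count table, 109 matched these symbols, and 51 of them reached 10 or more counts in at least 4 of 8 libraries. Those 51 are the members described here, and the other 58 are given only as counts.

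The 4 control libraries came from wild-type cells whose titles begin with nc, and the 4 knockdown libraries from cells of the same type with Sox6 knockdown, titled sisox6. The labels give neither the knockdown reagent nor its duration. They are also silent on whether replicate libraries derive from different animals or dishes, so each p-value here reflects variation among libraries that could be purely technical.

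Background on these enzymes comes mostly from the liver, where a first step of oxidation or hydrolysis exposes a reactive group and a second step adds glucuronic acid or sulfate to it. The same families also act on endogenous substrates, in the liver and outside it. In vessels they form and remove retinoic acid, break down lipid aldehydes, and make or hydrolyse epoxides and hydroxy acids of arachidonic acid, some of which act on vascular tone. Several of the families lie in tandem clusters of similar genes, so neighbouring copies can be compared with each other.

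Total counts per library ran from 37604102 to 49393224. Sox6 itself had 6, 10, 6 and 4 counts in the control libraries and 2, 4, 0 and 0 in the knockdown libraries, too few for the filter on low counts. Its level scaled to total counts was 0.144 ± 0.0527 and 0.0318 ± 0.0394 CPM (counts scaled to library size; SD, n = 4 each), lower in every knockdown library than in any control (exact permutation test, two-sided p = 0.0286, the smallest that 4 against 4 allows). Control replicate 4 and knockdown replicate 2 held 4 counts each, so their order (0.096 and 0.081 CPM) rests on library totals alone. The full separation of the groups depends on that pair. The smooth muscle markers were present unevenly: Acta2 was at 1240.2 CPM and Cald1 at 650.5 CPM in controls, while Myh11 was at 5.9 CPM and Cnn1 at 2.23 CPM, and Tagln was almost uncounted, with a sum of 20 in controls against 38 in knockdowns. Of 9 smooth muscle markers tested, 6 fell and none rose, where 26.0% of all genes were called lower and 25.4% higher. The sum of the smooth muscle markers was 1950.9 to 2217.7 CPM in controls and 1404.9 to 1606.5 CPM in knockdowns. Fibroblast markers were 2 higher and 3 lower of 8, endothelial markers 2 higher and 6 lower of 8, and macrophage markers 1 higher of 3 tested. The fibroblast markers summed to 2355.4 to 2521.2 CPM in controls and 1885.7 to 2048.9 CPM in knockdowns, most of it Col1a1 (1942.3 and 1529.7 CPM). Over 6 marker genes each, the mesothelial sum was 258.2 to 281.3 CPM in controls and 142 to 153.5 CPM in knockdowns, and the proliferation sum was 1270.2 to 1602.7 CPM and 613.9 to 751.7 CPM. The 8 hepatocyte markers summed to 8.18 to 10.7 CPM in controls and 7.91 to 9.81 CPM in knockdowns, most of it Apob (8.94 and 7.58 CPM). Of the others, Hnf4a had 102 and 172 counts, Alb 4 and 34 (32 of the latter in knockdown replicate 2), Ttr 4 and 16, Tat 18 and 6, Apoa1 1 and 4, and Serpina1a and Fgb 0 and 2 each, and neither tested marker, Apob or Hnf4a, passed. In bulk RNA, fewer cells of a type and less RNA per cell cannot be told apart.

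Most members that differed were higher in the knockdown. Of 49 members tested, 23 were higher and 7 lower past an adjusted p of 0.05 in the edgeR quasi-likelihood test, and 19 did not pass. Over all 16150 genes tested, 51.5% were called, 25.4% higher and 26.0% lower. Among the members 61.2% were called, 46.9% higher and 14.3% lower. Changes of over 2 fold were called upward in 9 members (18.4%, against 4.07% of all genes) and downward in 2 (4.08%, against 4.93%). In 28 tested members the 4 knockdown values lay wholly on 1 side of the 4 controls (57.1%), as they did in 46.9% of all genes. The median log2 fold change was 0.25 over the tested members and 0.0186 over all genes. Scaling to total counts in place of TMM moved the median of all genes to 0.12 and the split of all genes to 5926 higher and 3045 lower, and that of members to 25 higher and 7 lower. These shares are read only against the background, because a gene of low count could enter through the group in which it was high. The same shares of all genes, 25.4% higher and 26.0% lower, are the background for every count by family or list given here. Of the 51 members, 8 had under 10 counts in at least 1 library. Rises of over 2 fold were called in 2 of the 6 tested among these, and in 7 of the other 43 (16.3%). Of those 7, Ces2c, Ugt1a6b and Aldh4a1 share 36.1%, 79.8% and 30.0% of their transcripts' 50-base stretches with other genes. The 23 higher members include 3 Ugt1a genes with shared exons, which are not independent. All counts together, the members took 0.602 ± 0.0112% of a control library and 0.583 ± 0.0111% of a knockdown library (SD, n = 4 each).

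**Figure D1:**
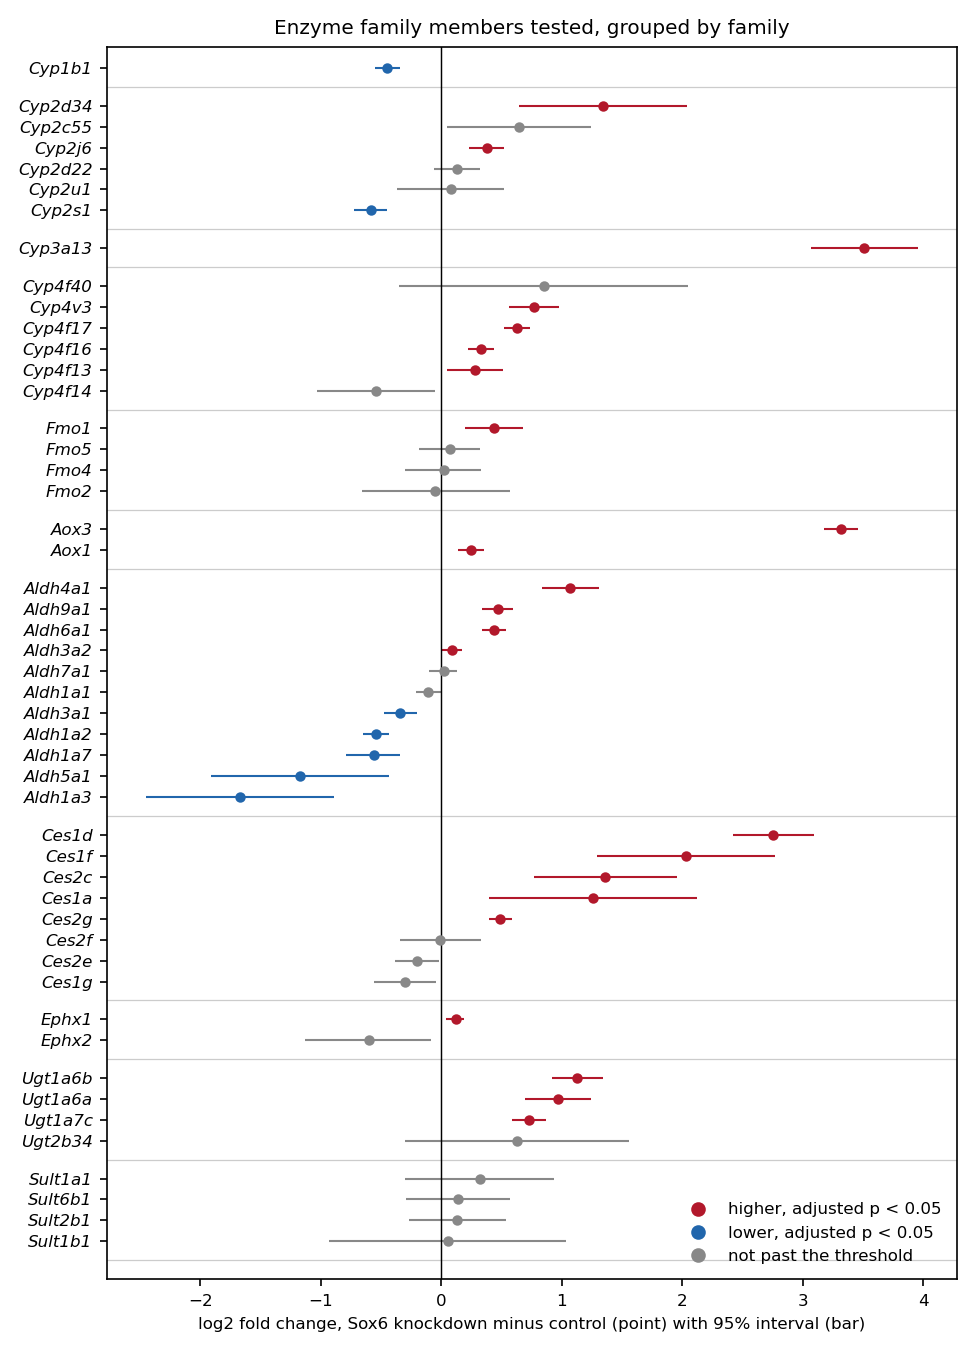
Log2 fold change (x axis, knockdown minus control) of the 49 tested members, grouped by family and sorted within it, with the 95% interval of the edgeR fit as a bar. Cyp3a13, Aox3 and Ces1d lie at 3.51, 3.32 and 2.75, while the aldehyde dehydrogenases spread to both sides, from 1.07 for Aldh4a1 to -1.67 for Aldh1a3, and no sulfotransferase passed.

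The most abundant P450, Cyp1b1, fell. Cyp1b1 (mm10 chromosome 17, 79701537 to 79715061) oxidises polycyclic aromatic hydrocarbons, oestrogens and retinol and is known as a P450 of mesenchymal cells outside the liver. Control libraries 1 to 4 held 1097.2, 1072.9, 1035.3 and 1135.2 CPM, and knockdown libraries 1 to 4 held 731.2, 826.5, 782.4 and 847.3 CPM. All knockdown values were below the lowest control, a log2 fold change of -0.45 ± 0.0498 (SE, adjusted p = 3.85e-06). Per kb of exon it stood at 185.8 CPM in controls and 136.5 CPM in knockdowns, the fourth highest level of the 51 members. Its relatives Cyp1a1 and Cyp1a2, the classical targets of the aryl hydrocarbon receptor in liver, were at 0 and 2 counts in all controls and at 10 and 0 in all knockdowns. The receptor gene Ahr fell from 12.2 ± 0.29 to 6.89 ± 0.624 CPM (-0.83, adjusted p = 1.05e-06), while its partner Arnt rose from 87.4 ± 0.614 to 112.7 ± 4.37 CPM (0.37, adjusted p = 3.02e-06). Of the same list of xenobiotic sensors, Tiparp rose from 23.3 ± 1.63 to 27.3 ± 2.82 CPM (0.23, adjusted p = 0.0206). Ahrr had 16 counts in all controls and 47 in all knockdowns and was not tested. The part of the receptor in the fall of Cyp1b1 was not tested.

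The promoter of Cyp1b1 is shown because it was the only promoter among the 5 called-lower members with a RefSeq window that held the letters AACAAT, the core bound by SOX proteins. The stretch is chr17:79715062-79715311, minus strand, GRCm38.p6, 250 bases before the RefSeq start, and capitals mark the match, which reads AACAAT on the other strand.
Cyp1b1: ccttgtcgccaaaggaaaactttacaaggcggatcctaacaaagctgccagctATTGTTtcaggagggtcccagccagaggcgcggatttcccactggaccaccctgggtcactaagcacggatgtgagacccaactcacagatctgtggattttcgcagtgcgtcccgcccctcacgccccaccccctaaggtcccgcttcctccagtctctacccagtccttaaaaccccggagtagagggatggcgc
The first base of the match lies 197 bases before the start. Such a match is a description of letters and not a binding site.

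Cyp3a13 showed the largest rise of all members. It is the sole CYP3A gene to reach the count rule here, a mouse member of the subfamily that oxidises drugs and steroids in liver and intestine (chromosome 5, 137892932 to 137921619). Its level was 0.703, 0.868, 0.916 and 0.624 CPM in controls 1 to 4 and 8.87, 11.5, 9.6 and 5.91 CPM in knockdowns 1 to 4. The groups lay far apart, on 136 and 1645 counts, although knockdown replicate 4 stood at 5.91 CPM against 8.87 CPM or more in the other 3. The log2 fold change was 3.51 ± 0.207 (SE, 95% interval 3.07 to 3.96, adjusted p = 5.78e-09). No 50-base stretch of its transcripts occurs in transcripts of another gene. The nuclear receptors that drive CYP3A genes in liver were barely counted, Nr1i2 (PXR) at 17 and 31 counts over the groups and Nr1i3 (CAR) at 0 and 6. Its promoter, chr5:137921620-137921869 on the minus strand of GRCm38.p6, is printed as that of the member with the largest rise, and none of the 6 motifs searched occurs in it.
Cyp3a13: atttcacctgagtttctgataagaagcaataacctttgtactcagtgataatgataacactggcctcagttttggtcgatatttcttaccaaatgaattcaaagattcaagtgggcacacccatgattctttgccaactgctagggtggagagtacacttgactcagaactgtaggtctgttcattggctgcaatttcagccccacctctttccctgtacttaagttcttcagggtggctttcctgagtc

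The CYP2 genes moved in both directions. Cyp2s1, a P450 known from epithelia outside the liver, fell. It was the most abundant CYP2 gene, at 58.3, 67.9, 67 and 60.8 CPM in controls and 42.9, 46.4, 41 and 39.2 CPM in knockdowns (-0.58 ± 0.0617, adjusted p = 2.28e-06), with no overlap between the groups. Cyp2j6, of the subfamily that contains arachidonic acid epoxygenases, rose from 17.7 ± 1.22 to 23 ± 1.32 CPM (0.38 ± 0.0665, adjusted p = 0.000264). Cyp2d34 was rare and rose from 0.38 ± 0.174 to 0.966 ± 0.246 CPM on 66 and 178 counts (1.34 ± 0.324, adjusted p = 0.00306). Of its transcripts' 50-base stretches 7.55% recur in other Cyp2d genes, so a part of those reads may be misassigned. The fatty acid hydroxylase gene Cyp2u1 (1.01 and 1.06 CPM, 95% interval of the log2 fold change -0.37 to 0.52) and Cyp2d22 (6.38 and 6.97 CPM, -0.06 to 0.32) did not pass. Cyp2c55 (0.842 and 1.33 CPM, log2 fold change 0.65, adjusted p = 0.065) did not pass either, and leaving out single libraries moved it from 0.44 (adjusted p = 0.217, without knockdown replicate 3) to 0.79 (adjusted p = 0.0467, without control replicate 4), with 2 of the 8 fits past the threshold, the other being that without knockdown replicate 1 (adjusted p = 0.0483). Cyp2d12, with 20 and 51 counts, was not tested. As a result of these opposite moves, Cyp2s1 took 69.7 ± 0.725% of the CPM of the 28 CYP2 genes in controls and 54.5 ± 1.18% in knockdowns.

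Among CYP4 genes, which encode omega-hydroxylases of fatty acids, 4 of 6 rose and none fell, where 25.4% of all genes were called higher and 26.0% lower. Cyp4f17 had 19.9, 20.5, 20.8 and 19.8 CPM in controls and 30.3, 31, 32 and 32.1 CPM in knockdowns (0.63 ± 0.0511, adjusted p = 1.65e-07). Its neighbour Cyp4f16, 6.41 kb downstream on chromosome 17, rose less, from 29.9 ± 0.586 to 37.5 ± 2 CPM (0.33 ± 0.0514, adjusted p = 9.42e-05), and 17.4% of its 50-base stretches recur in other Cyp4f genes. Both genes separated the groups completely. Cyp4v3 rose from 5.15 ± 0.218 to 8.76 ± 0.992 CPM (0.77 ± 0.0984, adjusted p = 1.46e-05), and 8.22% of its exon length overlaps another gene, Gm45753. Cyp4f13 was at 15.6 ± 2.43 and 18.9 ± 2.01 CPM (0.28, adjusted p = 0.0437), with control replicate 3 at 12 CPM and the other controls at 16.7 to 17 CPM. Without that library its log2 fold change was 0.16 (adjusted p = 0.113), and the call was also lost without knockdown replicate 1 (adjusted p = 0.128), 2 (adjusted p = 0.075) or 3 (adjusted p = 0.0783). The leukotriene hydroxylase gene Cyp4f14 pointed the other way without passing (1.34 and 0.925 CPM, -0.54, adjusted p = 0.0615). Leaving out single libraries moved it from -0.37 (adjusted p = 0.168, without knockdown replicate 4) to -0.64 (adjusted p = 0.0465, without knockdown replicate 3), the latter being the 1 fit of 8 that passed. Cyp4f40 had 27 and 52 counts and an interval of -0.35 to 2.05.

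Of the flavin monooxygenases, which oxidise nitrogen and sulfur atoms in drugs, Fmo1 rose and the others did not pass. Fmo1 had 8.21, 8.78, 6 and 8.99 CPM in controls and 11.1, 10.6, 9.93 and 11.6 CPM in knockdowns, without overlap (0.44 ± 0.112, adjusted p = 0.00466). Its direct neighbours on chromosome 1 were Fmo4 at 2.75 and 2.78 CPM (95% interval of the log2 fold change -0.3 to 0.33) and Fmo2 at 0.574 and 0.553 CPM (-0.66 to 0.57). Fmo5, on chromosome 3, was at 5.07 and 5.32 CPM (-0.18 to 0.32).

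The aldehyde oxidases gave the sharpest contrast between neighbours. These molybdenum flavoproteins oxidise aldehydes and nitrogen heterocycles, and Aox3 is known chiefly as a liver form in mice. Aox3 (chromosome 1, 58113130 to 58200698) begins 6.72 kb after the end of Aox1 (58029931 to 58106413) on the same strand. Its level was 5.34, 4.62, 4.51 and 4.74 CPM in controls 1 to 4 and 50.2, 47.8, 48.3 and 45.8 CPM in knockdowns 1 to 4. Within each group the libraries lay close together, and the groups were far apart (log2 fold change 3.32 ± 0.0667, 95% interval 3.18 to 3.46, adjusted p = 1.01e-13). Aox1 was at 110.9, 116.7, 102.1 and 118.6 CPM in controls and 132.3, 125.4, 132.5 and 142.9 CPM in knockdowns. Its rise was small and without overlap (0.25 ± 0.0533, 95% interval 0.14 to 0.36, adjusted p = 0.00123), so the intervals of the neighbours do not meet. Aox3 thus went from 4.12 ± 0.372% to 26.5 ± 1.57% of the CPM of the 4 Aox genes (SD, n = 4 each). The next genes in the cluster, Aox4 and Aox2, were at 7 and 2 counts in all controls and at 10 and 19 in all knockdowns. Aox3 shares no 50-base stretch with another gene's transcripts.

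Both promoters are printed for comparison, since the genes are adjacent and differ in response. Each stretch ends where the GENCODE gene begins, that of Aox3 being chr1:58112886-58113129 (244 bases) and that of Aox1 chr1:58029719-58029930 (212 bases), plus strand, GRCm38.p6.
Aox3: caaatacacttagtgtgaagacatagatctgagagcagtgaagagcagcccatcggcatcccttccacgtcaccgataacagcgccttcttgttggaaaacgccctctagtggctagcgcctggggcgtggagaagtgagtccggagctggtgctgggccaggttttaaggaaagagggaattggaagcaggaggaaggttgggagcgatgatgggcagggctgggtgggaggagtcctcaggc
Aox1: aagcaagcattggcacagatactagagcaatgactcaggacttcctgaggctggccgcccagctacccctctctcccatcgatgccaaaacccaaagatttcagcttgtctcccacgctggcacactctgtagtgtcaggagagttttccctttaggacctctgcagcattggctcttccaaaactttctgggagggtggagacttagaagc
Neither holds any of the 6 motifs searched.

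Genes that supply the aldehyde oxidases with their molybdenum cofactor did not follow Aox3. Mocs1 (89.6 ± 6.88 and 88.7 ± 4.82 CPM), Mocs2, Mocs3 and the sulfurase gene Mocos did not pass, and Gphn fell (-0.16, adjusted p = 0.0245). Suox, which encodes the molybdenum enzyme sulfite oxidase, rose from 18.5 ± 0.537 to 29.8 ± 2.87 CPM (0.69 ± 0.0684, adjusted p = 1.31e-06). Xdh, which encodes xanthine dehydrogenase, a close relative of the aldehyde oxidases, was at 641.3 ± 80.9 and 592.4 ± 29.3 CPM (-0.11, adjusted p = 0.215).

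**Figure D2:**
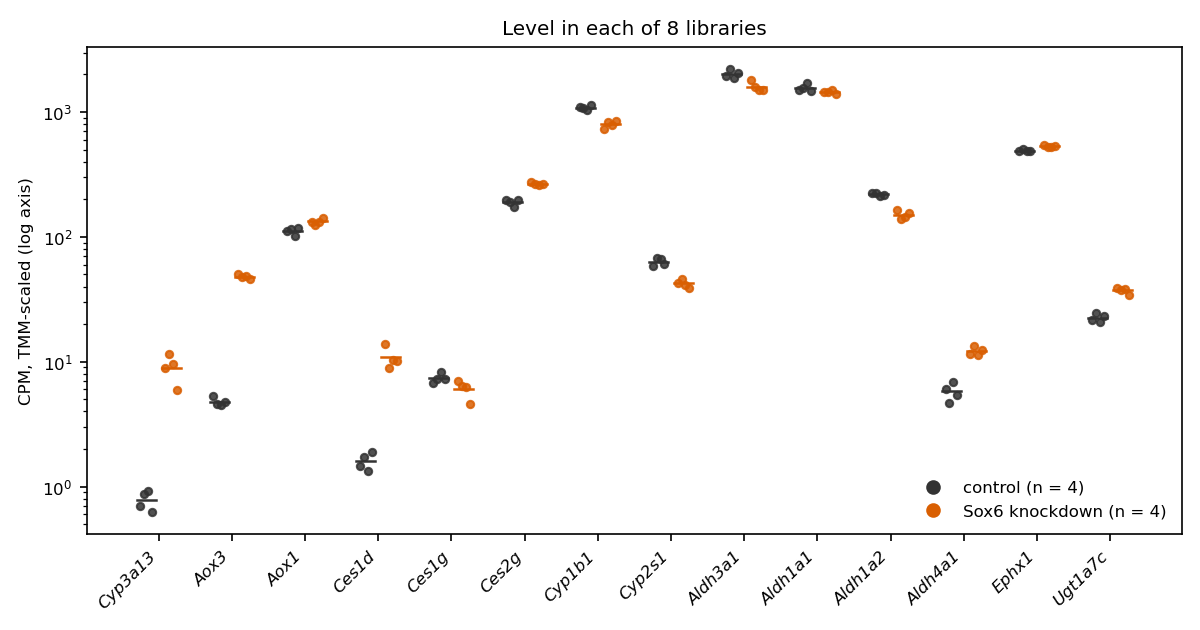
CPM (log axis) of 14 members in each of the 8 libraries, controls in dark points and knockdowns in orange, with a bar at each group mean. Cyp3a13, Aox3 and Ces1d stand apart between the groups, whereas Aox1, Ces1g, Aldh1a1 and Ephx1 lie close to their controls.

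Aldehyde dehydrogenases were the most abundant family and split by direction, with 4 of 11 higher, 5 lower and 2 not past the threshold. The shares over all genes were 25.4% higher and 26.0% lower. Summed over 12 genes the family stood at 4111.8 ± 135 CPM in controls and 3554.7 ± 164.1 CPM in knockdowns, carried mainly by Aldh3a1 and Aldh1a1. Aldh3a1, which clears aldehydes of lipid peroxidation and is known from the cornea, was the highest of the 51 members per length (1038.9 and 821.9 CPM per kb of exon). Its libraries held 1946.3, 2206.9, 1867.5 and 2049.1 CPM in controls and 1791.7, 1583.7, 1511.3 and 1497.7 CPM in knockdowns. All knockdown values were below all controls, but by a modest margin (-0.34 ± 0.0628, adjusted p = 0.000409). Aldh3a2, the fatty aldehyde dehydrogenase gene next to it on chromosome 11, was at 115.8 ± 1.68 and 123.2 ± 0.192 CPM, a log2 fold change of 0.09 (adjusted p = 0.0475). That small call was lost when any single library was left out (adjusted p from 0.0615 to 0.104).

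Of the 4 Aldh1a members 3 fell and Aldh1a1 did not pass. The products of Aldh1a1, Aldh1a2 and Aldh1a3 oxidise retinaldehyde to retinoic acid. Aldh1a2, the retinaldehyde dehydrogenase of embryonic mesenchyme and of mesothelium, had 224, 223.7, 211.1 and 217.8 CPM in controls and 163.4, 138.8, 144 and 156.6 CPM in knockdowns, without overlap (-0.54 ± 0.0506, adjusted p = 6.94e-07). Of 6 mesothelial markers 5 fell beside it, among them Upk1b from 90 to 28.7 CPM and Upk3b from 41.5 to 11 CPM, and their part in the change of Aldh1a2 was not tested. Aldh1a3 was rare, with 34, 41, 50 and 36 counts in controls and 6, 29, 8 and 11 in knockdowns (-1.67 ± 0.366, adjusted p = 0.0015). It met the count rule in 4 control and 2 knockdown libraries, so the rule itself favoured a fall. Knockdown replicate 2 held more of these counts than the other 3 together, yet stayed below every control in CPM. Aldh1a1 was at 1557.6 ± 105 and 1444.6 ± 44.8 CPM (-0.11, 95% interval -0.21 to -0.00, adjusted p = 0.0794) and ran from -0.06 (adjusted p = 0.229, without control replicate 3) to -0.14 (adjusted p = 0.0485, without control replicate 4) when single libraries were left out. With DESeq2, and also in edgeR without a filter on low counts, Aldh1a1 passed as lower. Its rodent relative Aldh1a7, of whose 50-base stretches 7.49% recur in Aldh1a1, fell from 12.3 ± 0.813 to 8.29 ± 1.38 CPM (-0.56 ± 0.106, adjusted p = 0.00044). Of 20 genes of retinoid handling 14 were tested, and 1 rose, 3 fell and 10 did not pass. Cyp26b1, whose product degrades retinoic acid, fell from 23.1 ± 0.713 to 13.8 ± 0.41 CPM (-0.75 ± 0.0575, adjusted p = 9.61e-08), as did the retinaldehyde reductase gene Dhrs3 (-0.33, adjusted p = 0.00489) and Dhrs9 (-0.27, adjusted p = 0.0274), while the receptor gene Rarg rose (0.16, adjusted p = 0.00425).

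The other 5 aldehyde dehydrogenases, 3 higher, 1 lower and 1 not past the threshold, act in amino acid, GABA or carnitine metabolism. Aldh4a1, which completes the breakdown of proline in mitochondria, had 6.1, 4.68, 6.94 and 5.39 CPM in controls and 11.5, 13.3, 11.4 and 12.4 CPM in knockdowns (1.07 ± 0.11, adjusted p = 1.68e-06). Its groups did not overlap, but 32.5% of its exon length is shared with a read-through gene, Gm21969, so its reads are in part uncertain. Aldh6a1, of valine and thymine breakdown, rose from 66.5 ± 2.03 to 90 ± 4.86 CPM (0.44 ± 0.0469, adjusted p = 2.62e-06). Aldh9a1, of carnitine synthesis, rose from 32.8 ± 2.32 to 45.5 ± 2.99 CPM (0.47 ± 0.0617, adjusted p = 1.79e-05). Aldh7a1, of lysine breakdown, was at 82.4 ± 2.72 and 83.4 ± 6.66 CPM (95% interval of the log2 fold change -0.1 to 0.13). Against these, Aldh5a1, of GABA breakdown, fell from 1.09 ± 0.362 to 0.487 ± 0.226 CPM on 192 and 88 counts, with overlapping groups (-1.17 ± 0.345, adjusted p = 0.0107). Exons of other genes overlap 18.6% of the exon length of Aldh6a1 and 17.7% of that of Aldh5a1. Their reads are in part uncertain too.

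Of 24 other aldehyde dehydrogenases and reductases 21 were tested, and 14 rose, 2 fell and 5 did not pass, where 25.4% of all genes were called higher and 26.0% lower. The hydroxysteroid dehydrogenase gene Akr1c14 rose from 43.4 ± 2.06 to 73.2 ± 3.69 CPM (0.75, adjusted p = 1.9e-08), the carbonyl reductase gene Cbr2 from 47.9 ± 4.01 to 80.6 ± 6.46 CPM (0.75, adjusted p = 3.69e-07), and the folate enzyme genes Aldh1l1 (0.89) and Aldh1l2 (0.56) also rose. This list was drawn up with earlier results of these data known, so its count is a description.

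Of 8 carboxylesterases tested, 5 rose, none fell and 3 did not pass, with log2 fold changes from -0.3 to 2.75. Over all genes 25.4% were called higher and 26.0% lower. These esterases hydrolyse drugs, triglycerides and cholesteryl esters. Ces1d, a triglyceride hydrolase of liver and fat, had 1.45, 1.74, 1.34 and 1.9 CPM in controls and 13.9, 8.96, 10.4 and 10.1 CPM in knockdowns. The groups were far apart on 277 and 1970 counts (2.75 ± 0.155, 95% interval 2.42 to 3.09, adjusted p = 3.6e-09). Of 7 adipocyte markers 3 were tested, and Fabp4 fell from 9.9 to 3.56 CPM, Lpl fell from 8.32 to 2.28 CPM and Pparg did not pass. Lep had no counts, and Adipoq had 30 and 26 counts over the groups. The adipocyte markers summed to 29.1 to 32.6 CPM in controls and 15.7 to 18.8 CPM in knockdowns. Their relation to the rise of Ces1d was not tested.

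Other Ces1 genes of the same chromosome 8 cluster responded unequally. Ces1f had 8, 8, 8 and 14 counts in controls and 59, 34, 34 and 38 in knockdowns, a ratio of 4.41 per total count (95% exact interval 3.08 to 6.45, counting error only; log2 fold change 2.03, adjusted p = 0.000187). It met the count rule in 1 control and 4 knockdown libraries, so the rule itself favoured a rise. Ces1a rose on 48 and 120 counts (1.26 ± 0.402, adjusted p = 0.0168), a call lost without control replicate 1 (1.12, adjusted p = 0.0552), control replicate 4 (1, adjusted p = 0.0503) and also knockdown replicate 4 (1.06, adjusted p = 0.0613). For Ces1a too the count rule favoured a rise, being met in 2 control and 4 knockdown libraries. Ces1g, 22.6 kb beyond Ces1f, was the leading Ces1 gene of controls and did not pass, at 7.41 ± 0.623 and 6.03 ± 1.04 CPM (-0.3, 95% interval -0.56 to -0.04, adjusted p = 0.0534), and it ran from -0.18 (adjusted p = 0.15, without knockdown replicate 4) to -0.38 (adjusted p = 0.0263, without knockdown replicate 1) when single libraries were left out. The intervals of Ces1d and Ces1g do not meet. Ces1d therefore took 16.7 ± 2.76% of the CPM of the 8 Ces1 genes in controls and 57.5 ± 3.4% in knockdowns. Sequence sharing among Ces1 members was low, at 0.0916% to 1.67% of their 50-base stretches. Of the exon length of Ces1a, however, 18.1% overlaps another gene, Gm45463, so its reads are in part uncertain.

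In the Ces2 cluster the abundant gene rose by less. Ces2g, the leading carboxylesterase, had 197.1, 191, 173 and 198.6 CPM in controls and 277.3, 264.3, 262.5 and 266.5 CPM in knockdowns, without overlap (0.49 ± 0.0464, adjusted p = 6.88e-07). Its close neighbour Ces2f, whose end lies 1.67 kb before it, was at 3.3 ± 0.59 and 3.28 ± 0.437 CPM (95% interval of the log2 fold change -0.34 to 0.33). Ces2c rose from 0.536 ± 0.216 to 1.39 ± 0.225 CPM (1.36 ± 0.277, adjusted p = 0.000847), but 36.1% of its 50-base stretches occur in other genes or pseudogenes, among them Ces2b and Ces2d-ps, so its counts are uncertain. Ces2e did not pass (10.7 ± 1.12 and 9.3 ± 0.431 CPM, -0.2, adjusted p = 0.0626), and ran from -0.14 (adjusted p = 0.199, without control replicate 1) to -0.26 (adjusted p = 0.0292, without control replicate 4) when single libraries were left out. Ces2a, with 23 and 43 counts, was not tested.

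**Figure D3:**
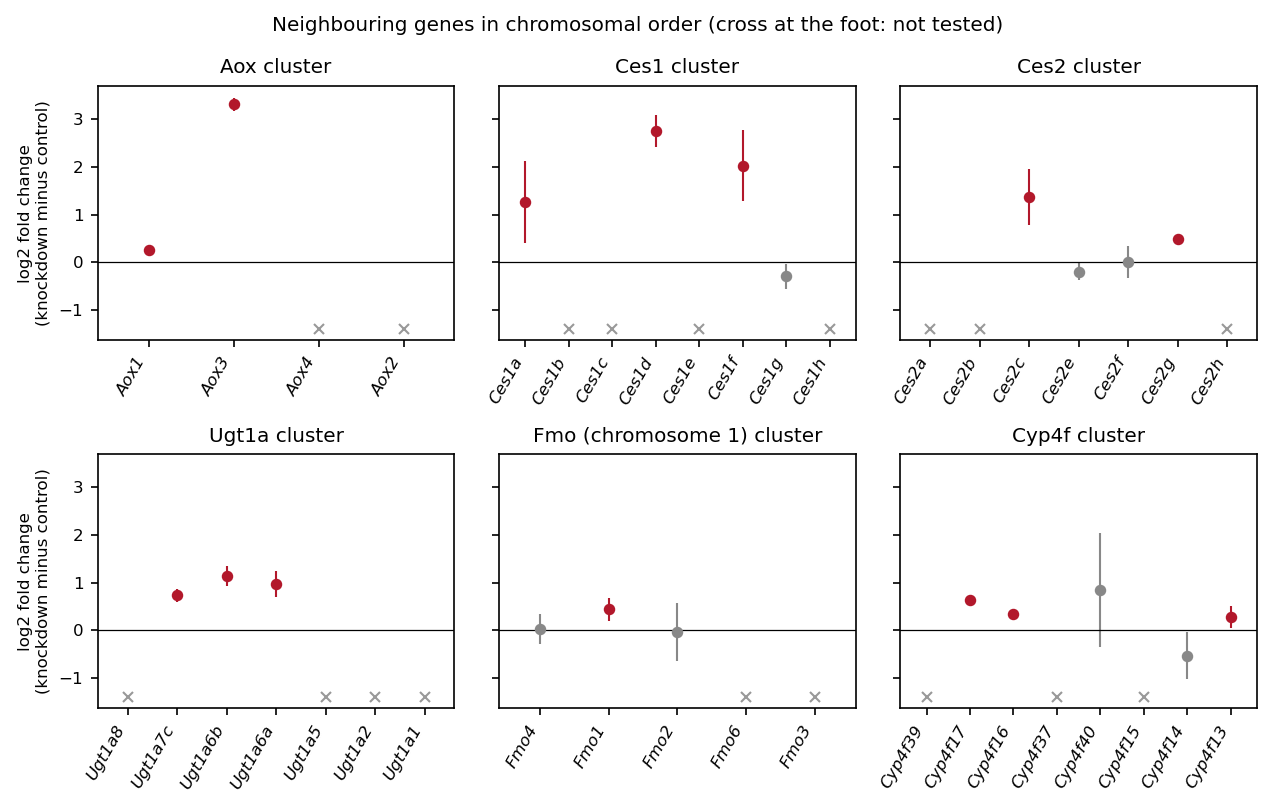
Log2 fold change (y axis, with its 95% interval) of the genes of 6 clusters, in the order in which they lie along the chromosome; crosses at the foot mark genes not tested. Aox3 stands above Aox1 and Ces1d above Ces1g, while the 3 tested Ugt1a genes lie together between 0.73 and 1.13.

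Epoxide hydrolases were carried by Ephx1, the microsomal form that hydrolyses epoxides of drugs and lipids. Ephx1 was at 487.6, 502.7, 487 and 488.9 CPM in controls and 546.6, 525.5, 524.8 and 534.8 CPM in knockdowns. The groups did not overlap, yet the difference was small (0.12 ± 0.0359, adjusted p = 0.0138). Ephx2, the soluble form that removes vasoactive epoxides of arachidonic acid, was at 3.26, 2.01, 3.19 and 2.42 CPM in controls and 1.56, 1.32, 1.4 and 2.85 CPM in knockdowns. It narrowly failed to pass (-0.6, 95% interval -1.13 to -0.08, adjusted p = 0.0512). Without knockdown replicate 4, which alone lay within the control range, it passed as lower (-0.93, adjusted p = 0.00196), as it did without control replicate 2 (-0.73, adjusted p = 0.0281) and with DESeq2 size factors (-0.61, adjusted p = 0.0485) or limma-voom (-0.65, adjusted p = 0.0351). In the other 6 fits that left out 1 library it did not pass, down to -0.48 without knockdown replicate 2 (adjusted p = 0.138). Of 19 genes of eicosanoid synthesis and breakdown 15 were tested, and 2 rose, 3 fell and 10 did not pass. Hpgd, which inactivates prostaglandins, fell from 25.7 ± 1.28 to 8.96 ± 0.948 CPM (-1.52, adjusted p = 1.59e-09), and Ptgis, the prostacyclin synthase and itself a P450, from 385.7 ± 16.6 to 297 ± 11.3 CPM (-0.38, adjusted p = 5.18e-06). The phospholipase gene Pla2g4a rose from 107.5 ± 1.67 to 130.2 ± 4.33 CPM (0.28, adjusted p = 3.63e-05), and the prostaglandin reductase gene Ptgr1 also rose (0.34, adjusted p = 0.00203).

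Glucuronosyltransferases of the Ugt1a locus rose together. The locus on chromosome 1 joins alternative first exons to shared last exons, and its enzymes add glucuronic acid to phenols, bilirubin and steroids. Ugt1a7c had 21.6, 24.7, 20.8 and 23.1 CPM in controls and 38.9, 37.8, 38.6 and 34.4 CPM in knockdowns (0.73 ± 0.0639, adjusted p = 3.49e-07). Ugt1a6b rose from 4.75 ± 0.635 to 10.4 ± 0.429 CPM (1.13 ± 0.0984, adjusted p = 3.24e-07) and Ugt1a6a from 2.69 ± 0.313 to 5.27 ± 0.492 CPM (0.97 ± 0.126, adjusted p = 1.63e-05). None of the 3 overlapped between groups. Between 50.3% and 60.6% of their exon length is common to other Ugt1a genes, so the division of reads among them is uncertain and they do not count as 3 independent rises. Ugt2b34, on 60 and 96 counts, did not pass (0.63, 95% interval -0.3 to 1.56). Genes for the sugar donor went both ways: Ugdh, which makes UDP-glucuronic acid, fell from 128.7 ± 0.962 to 99.2 ± 7.36 CPM (-0.37 ± 0.049, adjusted p = 1.79e-05), and Ugp2, which makes its precursor UDP-glucose, rose from 59.9 ± 5 to 74 ± 4.42 CPM (0.31, adjusted p = 0.000708).

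The Ugt1a6a promoter is shown as the only one among the 17 called-higher members with a RefSeq window that held AACAAT (capitals). It is chr1:88134559-88134808, plus strand, GRCm38.p6, and the match begins 114 bases before the start.
Ugt1a6a: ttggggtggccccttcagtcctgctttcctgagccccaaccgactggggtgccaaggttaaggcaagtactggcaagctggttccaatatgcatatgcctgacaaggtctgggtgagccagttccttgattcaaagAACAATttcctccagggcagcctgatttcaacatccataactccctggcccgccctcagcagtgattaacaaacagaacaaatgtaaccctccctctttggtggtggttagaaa

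No sulfotransferase passed. Sult6b1 (2.02 ± 0.313 and 2.23 ± 0.605 CPM), Sult2b1 (1.51 ± 0.238 and 1.66 ± 0.263 CPM), Sult1a1 (0.644 ± 0.145 and 0.812 ± 0.271 CPM) and Sult1b1 (0.272 ± 0.176 and 0.287 ± 0.0966 CPM) overlapped between the groups. Their intervals reach from -0.93 to 1.04 at the widest, for Sult1b1, and from -0.27 to 0.54 at the narrowest, for Sult2b1. The genes that make the sulfate donor fell, Papss2 from 36 ± 1.18 to 18.7 ± 1.75 CPM (-0.95 ± 0.0655, adjusted p = 3.21e-08) and Papss1 from 90.3 ± 1.79 to 68 ± 2.47 CPM (-0.41, adjusted p = 1.41e-06).

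The level per length differed widely among members. In controls 6 members exceeded 50 CPM per kb of exon, namely Aldh3a1, Aldh1a1, Ephx1, Cyp1b1, Aldh1a2 and Ces2g, and their log2 fold changes ran from -0.54 to 0.49. The 3 largest rises belonged to members below 1 CPM per kb in controls, with Aox3 at 0.683, Ces1d at 0.678 and Cyp3a13 at 0.263. In the knockdown they reached 6.83, 4.57 and 3.03 CPM per kb. Aox3 thereby came close to Cyp2s1, which was at 8.58 CPM per kb in the knockdown. A low control level did not by itself go with a rise. Fmo5, Fmo4 and Ces2f, at 0.893, 0.741 and 0.671 CPM per kb in controls, did not pass. Aldh1a3 and Aldh5a1, at 0.2 and 0.193 CPM per kb, fell. The 3 rises were picked by size, which favours low control values.

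**Figure D4:**
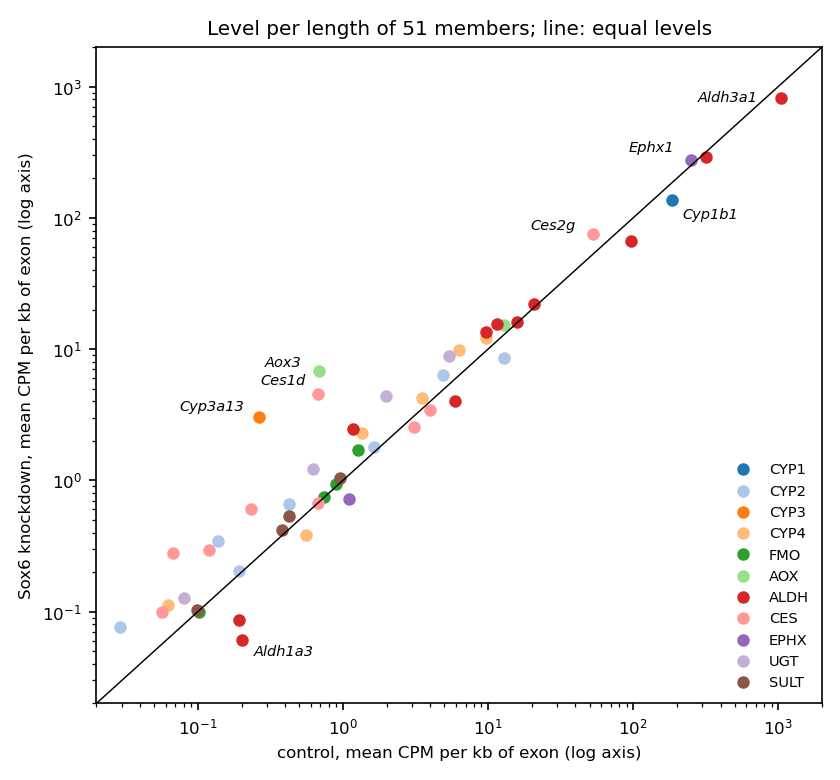
Mean CPM per kb of exon in the knockdown (y axis) against the control (x axis) for the 51 members, both on log axes, coloured by family, with a line of equal levels. Abundant members lie near the line, and Aox3, Ces1d and Cyp3a13 lie above it from control levels below 1 CPM per kb.

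Among regulators and partners outside the families, changes went both ways. Of 20 nuclear receptors and xenobiotic sensors 14 were tested, with 4 higher, 5 lower and 5 not passing, where 25.4% of all genes were called higher and 26.0% lower. The liver X receptor gene Nr1h3 rose from 27.9 ± 1.1 to 54.2 ± 4 CPM (0.96 ± 0.0573, adjusted p = 6.84e-09), and Keap1, which restrains NRF2, fell from 63.8 ± 0.662 to 50.8 ± 2.49 CPM (-0.33, adjusted p = 2.3e-05). Nfe2l2, the gene of NRF2 itself, also fell, from 264.0 ± 4.29 to 237.3 ± 9.37 CPM (-0.15, adjusted p = 0.00433). Of 19 redox partners and cofactor genes 4 rose, 6 fell and 9 did not pass. Por, the reductase that feeds electrons to microsomal P450 enzymes, was at 139 ± 9.02 and 139.2 ± 3.54 CPM. P450 genes outside the symbol rule numbered 13 in the table, of which 8 were tested, and 3 rose, 2 fell and 3 did not pass. The sterol demethylase gene Cyp51 rose from 97.9 ± 16.7 to 213.5 ± 7.96 CPM (1.12, adjusted p = 9.61e-08) and the sterol 27-hydroxylase gene Cyp27a1 from 1.18 ± 0.412 to 2.54 ± 0.515 CPM (1.1, adjusted p = 0.00143).

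Of 20 genes of other conjugation and export, 17 were tested, and 7 rose, 4 fell and 6 did not pass. Abcc2, an exporter of glucuronides and other conjugates in liver, had 4, 0, 0 and 0 counts in controls and 76, 77, 42 and 68 in knockdowns, a ratio of 66.7 (95% exact interval 25.8 to 246.8, counting error only; adjusted p = 1.11e-06). Abcc4, an exporter of cyclic nucleotides and prostaglandins, rose from 63.2 ± 1.47 to 134.2 ± 3.87 CPM (1.09 ± 0.0399, adjusted p = 5.24e-11). Abcc5 rose from 639.4 ± 10.4 to 966.2 ± 68.6 CPM (0.6, adjusted p = 1.67e-07), and the thiopurine methyltransferase gene Tpmt from 4.9 ± 0.276 to 7.54 ± 0.807 CPM (0.62, adjusted p = 0.00013). The 4 that fell were all exporter genes: Abcg2 (-0.38, adjusted p = 0.000606), Abcb1b (-0.28, adjusted p = 0.00107), Abcb1a (-0.27, adjusted p = 0.00502) and Abcc1 (-0.21, adjusted p = 0.000663). Exporter genes thus went both ways.

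Promoter letters were compared for the 38 members with a RefSeq window, which spans 250 bases before to 50 after the start. The SOX core AACAAT occurred on either strand in 6 of 38 members (15.8%), against 12.2% of 27025 genes with a window. Those were Cyp1b1, Ugt1a6a, Cyp2c55, Sult1a1, Sult1b1 and Sult6b1, of which 4 were not called, 1 was higher and 1 lower. The AHR and ARNT element TNGCGTG occurred in 2 (5.26%, against 5.84% of genes), and the NRF2 element TGACNNNGC in 4 (10.5%, against 14.0%). Direct repeats of AGGTCA with 1, 4 or 5 free bases between the copies, bound by nuclear receptors, occurred in none of them, against 0.0481%, 0.0148% and 0.0111% of genes. Both strands were searched. Absence from this window says only that these letters are not in it.

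Members near the count rule held few reads. Just inside it, Cyp2d12 and Ces2a reached 10 counts in 4 libraries. Just outside, with 3 such libraries, were Cyp2d10 (13 counts in all controls and 39 in all knockdowns), Cyp2j9 (30 and 36), Cyp2t4 (35 and 49), Cyp4b1 (39 and 18), Sult1d1 (32 and 28) and Ugt1a1 (16 and 55). Of the 58 symbol matches below the rule, 2 had no counts.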

How the data were processed

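Whole-number read counts per gene identifier in 8 libraries were used as the authors deposited them. Per the submitters' processing notes the genome build was mm10, and the counting program, its strand setting and its treatment of reads shared between genes are unknown (not given in the sources used here). From 72.0% to 74.2% of the counts from 1 to 40 were even in each library, so a fragment may have been counted by both mates, and the cause was not tested. Intervals of counts cover counting error only, and would be too narrow even for that if fragments were counted more than once.

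Symbols, exon lengths and overlaps came from GENCODE M21, and promoter windows from RefSeq (GRCm38.p6). Libraries were scaled by TMM, filterByExpr (minimum count 10) left 16150 genes, which were tested with edgeR 4.0.16 (glmQLFit and glmQLFTest, R 4.3.3) between the 4 controls and 4 knockdowns. Benjamini-Hochberg adjustment ran over all genes, with calls at an adjusted p under 0.05. CPM used TMM-scaled library sizes, and CPM per kb the exon length. The 3-count floor was 0.0607 to 0.0798 CPM. Sox6 was compared by an exact permutation test. Sequence sharing counted 50-base stretches found in transcripts of other genes.

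Every member is named. From each pathway list of other genes, up to 4 with the smallest p past the threshold are named, and others only where a result refers to them, chosen after their values were seen. The members and lists were chosen with earlier results of these data known. Alternatives were other scalings, filters, thresholds, halved counts, DESeq2 1.42.0, limma-voom 3.58.1, a replicate block and leaving out each library. In simulated data 200 genes were changed, 50 at each size, and 15903 genes passed the filter and were tested. Of the genes changed by 1.2 fold 17 were called, 30 of those by 1.5 fold, 43 of those by 2 fold and 45 of those by 4 fold. Of 141 calls 6 were false. A far smaller share of genes was changed there than was called in the data, so these rates need not hold for the data.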

Additional observations from a re-analysis of the deposited data

Results flagged for a closer look

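In 10 of 102 groups of 4 libraries, a single library lay far from the other 3 relative to the range of the group (Dixon's test, which chance passes in about 1 of 20 groups). Control replicate 2 was high for Cyp2d22 at 7.2 CPM, with the others at 6.05 to 6.17, for Cyp2d34 at 0.64 CPM, with the others at 0.281 to 0.3, and for Ephx1 at 502.7 CPM, with the others at 487 to 488.9. Control replicate 3 was low for Cyp4f13 at 12 CPM. Control replicate 4 was high for Ces1f at 0.349 CPM and for Ugt1a6b at 5.69 CPM. Knockdown replicate 1 was high for Ces2c at 1.72 CPM, with the others at 1.26 to 1.28, and for Ugt1a6b at 11.0 CPM. Knockdown replicate 2 was low for Cyp2d22 at 6.75 CPM. Knockdown replicate 4 was high for Ephx2 at 2.85 CPM, with the others at 1.32 to 1.56. No single library held most of these values, and their source was not tested.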

How the results depend on the processing

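Of 30 called members, 25 kept call and direction under every one of the 18 alternatives that tested them, and none of the 30 turned sign. Member counts ran from 19 to 25 higher and 6 to 10 lower, and calls over all genes from 6332 (adjusted p under 0.01) to 8971 (total count scaling). Aldh5a1, Ces1a, Cyp4f13, Ephx1 and Aldh3a2 were lost at an adjusted p under 0.01, Aldh3a2 also with DESeq2 size factors (adjusted p = 0.0609), and both Aldh3a2 (adjusted p = 0.206) and Ephx1 (adjusted p = 0.0506) without a filter. Some uncalled members passed under another fit: Ces1g as lower without a filter (adjusted p = 0.0221), in DESeq2 (0.0387) and in limma-voom (0.0442), Ephx2 as lower without a filter (0.00432) and in DESeq2 (0.0285), and Cyp2d22 (0.23, adjusted p = 0.0389) and Cyp2c55 (0.75, adjusted p = 0.0354) as higher with total count scaling. Cyp2c55 also passed as higher without a filter (adjusted p = 0.0438) and with a 1 CPM filter (0.0498). Aldh1a1 passed as lower without a filter and in DESeq2. Cyp4f14 passed as lower with a 1 CPM filter (-0.53, adjusted p = 0.0458). Members that were not called and lay near 0 turned sign: Fmo2 was 0.05 with total count scaling, and Ces2f was 0.03 with upper quartile scaling, 0.10 with total count scaling, 0.00328 with a 1 CPM filter and 0.01 with limma-voom. When libraries were left out in turn, Cyp2u1 ran from -0.03 to 0.15, Fmo2 from -0.28 to 0.07, Fmo4 from -0.06 to 0.07, Aldh7a1 from -0.04 to 0.06, Ces2f from -0.13 to 0.07 and Sult1b1 from -0.17 to 0.57. The Sox6 ratio of knockdown to control ran from 0.107 to 0.295 (exact permutation p = 0.0571 each, the smallest that 3 against 4 allows). The cause of these shifts was not tested.

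Same-numbered libraries did not deviate together (correlations -0.0132, -0.141, 0.051 and 0.0845), so the numbers give no pairs. With a replicate block, 23 members were higher and 9 lower, and 7985 genes were called. Aldh3a2 then no longer passed (adjusted p = 0.0935), and Ces1g, Cyp2c55 and Ephx2 did. With counts halved, 23 members were higher and 8 lower, no call was lost, and Cyp4f14 passed as lower.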

Other observations

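Genes of the same families below the count rule were mostly near 0. Over all controls and all knockdowns, Ces1b had 6 and 38 counts, Ces1c 2 and 14, and Cyp2e1, the ethanol-oxidising P450 of liver, 31 and 12. Adh7, an alcohol dehydrogenase that also acts on retinol, had 4 and 48 counts, a ratio of 12.2 (95% exact interval 4.46 to 46.5, counting error only). None of these was tested across libraries.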
